A study of Homo sapiens with 2 samples.

Results

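Heterotrimeric G protein subunits and regulators of G protein signalling (RGS) were compared between SUDHL6 and HT, 2 established human diffuse large B cell lymphoma lines. The set held 45 named genes: 28 encode alpha, beta or gamma subunits and 17 encode RGS proteins. A gene was measured where a probe set of the array named it and no other gene, and 40 of the 45 had such a probe set, each of the 40 exactly 1. These 40 are among 14232 genes with a value on the arrays. RNA of each line was hybridised to 1 Affymetrix exon array, whose probes are spread over the exons. Both lines were grown in serum-containing RPMI medium and were untreated, so the measurement is the baseline state of cells in a study of an inhibitor of Polycomb repressive complex 2. Each line is 1 culture of 1 lymphoma. With 1 array for each line, no difference below could be set against a spread between replicates, no test was made, and the number of arrays limits the precision.

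A heterotrimeric G protein is an alpha subunit bound to a dimer of a beta and a gamma subunit, held beneath a cell surface receptor. An activated receptor loads the alpha subunit with GTP, and both the alpha subunit and the beta-gamma dimer then act on enzymes in the cell. The class of alpha subunit sets the branch: Gs raises cAMP, Gi lowers it and passes on chemokine signals, Gq turns on phospholipase C beta, and the G12 and G13 class acts on the cytoskeleton. RGS proteins speed the hydrolysis of GTP by the alpha subunit and so shorten the signal. In germinal centres, chemokine receptors work through Gi, the G13 branch holds B cells in place, and RGS1 and RGS13 are known to dampen chemokine responses.

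Values are log2 expression values, so a difference of 1 is a doubling. A gene was counted as different when SUDHL6 minus HT was at least 1 in size and the line with more signal was at or above its dim level. The dim level is the 95th percentile of 225 olfactory receptor genes, taken as unexpressed in these cells, and was 3.81 in SUDHL6 and 4.11 in HT. A value above it does not show that a gene was used, and a value below it does not show that the gene was silent. Of the 40 measured genes, 26 reached the dim level in at least 1 line and 14 did not. Levels of different probe sets depend on their probes, so each gene is compared only with itself in the other line.

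Most of the G protein and RGS genes differed little between the lines, and 4 differed by at least 1. RGS1 and RGS2 were higher in SUDHL6, while the gamma subunit gene GNG2 and the Gi alpha subunit gene GNAI3 were higher in HT. By the same rule 8.12% of all genes were counted as different (3.5% with SUDHL6 higher, 4.62% with HT higher, an order that turns with the scaling), against 10% (4 of 40) here, so the share of the set lies near the background. Of the 40 genes, 31 differed by less than 0.5. The median difference was 0.04, against -0.04 over all genes. The value of SUDHL6 was the larger for 24 of the 40, that of HT for 15, and 1 gene was equal (28 and 12 after quantile normalization).

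**Figure D1:**
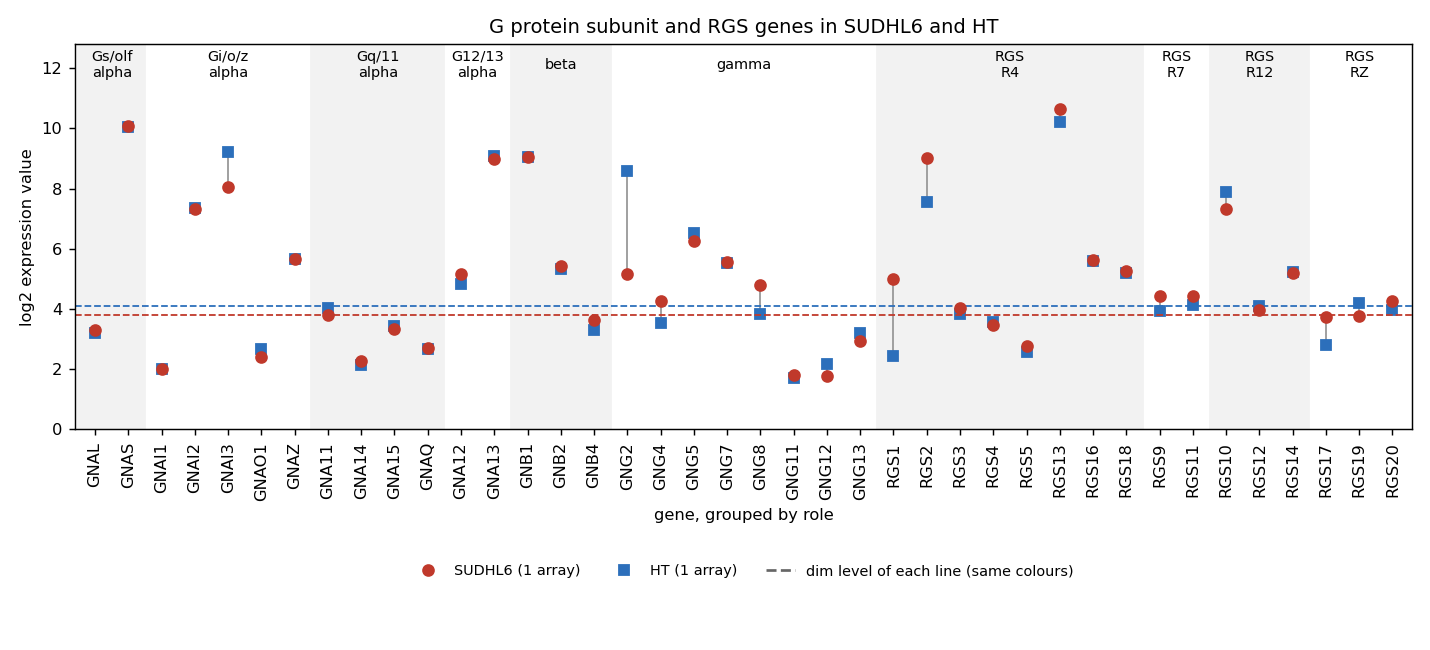
Log2 expression value of each of the 40 genes in SUDHL6 (red circles) and HT (blue squares), 1 array for each line, grouped by role, with dashed lines at the dim level of each line (3.81 and 4.11). The symbols nearly coincide for most genes, and wide gaps are seen for GNG2 (5.16 and 8.59) and RGS1 (4.99 and 2.43).

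The RGS genes that differed lie in a tandem group on chromosome 1. There, in order along the chromosome, RGS18, RGS21, RGS1, RGS13 and RGS2 follow each other without another protein-coding gene between them, and RGS21 had no value. All of them belong to the R4 group of small RGS proteins, which consist of little more than the RGS domain. The windows from 250 bases before to 50 bases after the start of the 4 measured genes are shown because these neighbours differ both in how they behaved between the lines and in promoter type. The sequences are from RefSeq, build GRCh38.p14, plus strand, 5′ to 3′. They lie at chr1:192158212-192158511 (RGS18), chr1:192575523-192575822 (RGS1), chr1:192635897-192636196 (RGS13) and chr1:192808789-192809088 (RGS2). Capitals mark every match, on either strand, to any of 6 motifs. The first is the TATA box TATAAA. The others are the box named after its letters, CCAAT, the core of the cAMP response element, with letters TGACG, the GC box GGGCGG, the E-box form CAGGTG and the MEF2 motif.
RGS18: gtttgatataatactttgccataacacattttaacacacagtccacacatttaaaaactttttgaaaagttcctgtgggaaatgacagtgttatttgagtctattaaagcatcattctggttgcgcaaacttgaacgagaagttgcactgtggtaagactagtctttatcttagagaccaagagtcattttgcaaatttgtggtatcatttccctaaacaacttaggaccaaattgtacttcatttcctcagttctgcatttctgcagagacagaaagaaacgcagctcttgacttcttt
RGS1: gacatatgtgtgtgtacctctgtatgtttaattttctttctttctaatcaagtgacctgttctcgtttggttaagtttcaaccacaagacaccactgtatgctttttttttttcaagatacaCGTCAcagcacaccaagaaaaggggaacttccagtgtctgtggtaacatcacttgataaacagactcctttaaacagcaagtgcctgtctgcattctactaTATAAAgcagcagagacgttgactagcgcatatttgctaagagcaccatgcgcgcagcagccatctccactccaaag
RGS13: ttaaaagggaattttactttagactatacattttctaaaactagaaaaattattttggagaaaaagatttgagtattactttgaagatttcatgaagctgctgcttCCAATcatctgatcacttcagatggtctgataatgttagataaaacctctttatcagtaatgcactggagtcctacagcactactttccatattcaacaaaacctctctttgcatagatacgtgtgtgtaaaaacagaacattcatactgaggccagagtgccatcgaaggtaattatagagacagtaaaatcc
RGS2: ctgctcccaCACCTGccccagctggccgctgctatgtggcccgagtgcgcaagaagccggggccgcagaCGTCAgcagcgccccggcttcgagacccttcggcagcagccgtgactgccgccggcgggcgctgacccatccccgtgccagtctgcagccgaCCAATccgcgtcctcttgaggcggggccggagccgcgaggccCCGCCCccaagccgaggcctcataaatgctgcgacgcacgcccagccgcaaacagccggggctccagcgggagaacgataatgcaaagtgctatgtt

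The RGS1 window holds the TATA box at position -27 from the start and the cAMP core, on the minus strand, at position -128. The TATA box is found in 11.6% of 34796 promoter windows of this length and the cAMP core in 24.5%. The RGS2 window is of another type, with 32 CpG dinucleotides, a GC content of 69.7% and an observed over expected CpG ratio of 0.89, where the median over all windows is 0.58. It also holds the CCAAT motif, the cAMP core, the GC box and the E-box form, which are found in 34.6%, 24.5%, 44.9% and 20.6% of windows. The windows of RGS1, RGS13 and RGS18 have CpG ratios of 0.47, 0.24 and 0.31. RGS13 has CCAAT alone and RGS18 has none of these letters in its window. The MEF2 motif, found in 1.87% of all windows, is in none of the 4. These matches describe the letters, and no binding or methylation was measured here. The motifs do not overlap each other in these windows.

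RGS1, an activation-induced regulator of Gi and Gq signals in B cells, stood at 4.99 in SUDHL6 and 2.43 in HT. It was above the dim level in SUDHL6 and below it in HT, so the difference of 2.56 can be given only as at least 1.83-fold higher in SUDHL6. With values raised to the dim level the difference is 0.87, under the threshold of 1. RGS2, which acts mainly on Gq, stood at 9.03 in SUDHL6 and 7.57 in HT, both well above the dim level, and was 2.75-fold higher in SUDHL6. Between these neighbours, RGS13, a regulator of germinal centre B cells, stood at 10.65 and 10.21, a difference of 0.45. RGS18, best known from platelets, stood at 5.26 and 5.20.

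The genes beyond the group were not counted as different. After RGS2 on the chromosome, UCHL5 (a deubiquitinase) differed by -0.38, RO60 (an RNA-binding protein) by -0.36, GLRX2 (a glutaredoxin) by -0.83 and CDC73 (a subunit of the PAF1 complex) by -0.56, each with its higher value in HT. The next 2 genes, B3GALT2 (a galactosyltransferase) and KCNT2 (a potassium channel), differed by 0.34 and 0.21, with the higher value in SUDHL6. KCNT2 was dim in both lines. B3GALT2, at 3.86 in SUDHL6 and 3.52 in HT, was at the dim level in SUDHL6 and dim in HT. Before RGS18, BRINP3 (difference -0.62) and PLA2G4A (difference 0.13) were dim in both lines.

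**Figure D2:**
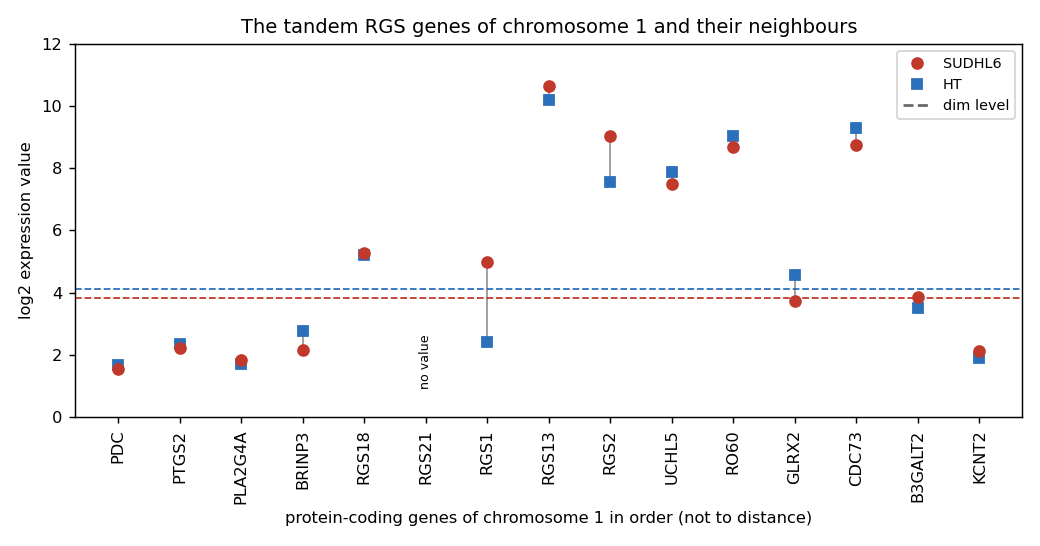
Log2 expression value in SUDHL6 (red circles) and HT (blue squares) of protein-coding genes in their order on chromosome 1 around the tandem RGS genes, not drawn to distance, with dashed lines at the dim level of each line. RGS1 and RGS2 are higher in SUDHL6, RGS13 between them differs by 0.45, and the genes on either side of the group differ by less than 1 in either direction.

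The other R4 genes showed no comparable gap. RGS16, an inducible regulator of Gi and Gq, stood at 5.64 in SUDHL6 and 5.59 in HT. RGS3 was at 4.02 and 3.82, close to the dim level. RGS4 and RGS5, neighbours elsewhere on chromosome 1 that are known from brain and from pericytes, were dim in both lines (3.47 and 3.58, 2.77 and 2.59). Of the 8 R4 genes, 7 had the higher value in SUDHL6, but only RGS1 and RGS2 reached a difference of 1.

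The remaining RGS groups held no gene counted as different. In the R12 group, RGS10, a small RGS protein of immune cells, was at 7.33 in SUDHL6 against 7.89 in HT (difference -0.56). RGS14, a scaffold that also binds inactive Gi alpha, was at 5.21 and 5.23, and RGS12 at 3.97 and 4.09. All 3 of this group had the higher value in HT, by as little as 0.02 for RGS14, whose sign turned after quantile normalization (0.02) and loess (0.04). In the R7 group, whose proteins are stable only when paired with the beta subunit GNB5, RGS9 (4.44 and 3.93) and RGS11 (4.43 and 4.14) were near the dim level. In the RZ group, RGS19 was at 3.75 and 4.22 and RGS20 at 4.28 and 3.95. RGS17 differed by 0.92, at 3.73 and 2.81, but was dim in SUDHL6 and HT alike. Over all 16 measured RGS genes the median difference was 0.19, against -0.04 over all genes. Counted as higher in SUDHL6 were 2 of the 16 (RGS1 and RGS2), or 12.5%, against 3.5% of all genes. With values raised to the dim level RGS2 alone was counted.

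GNG2 showed the widest gap of the set. Its product is a gamma subunit that pairs with GNB1 and anchors the dimer to the membrane. GNG2 had a value of 5.16 in SUDHL6 against 8.59 in HT, each above its dim level, and was thus 10.8-fold higher in HT (difference -3.43). Among the 9554 genes that reached the dim level in at least 1 line, 1.03% differed by as much in either direction. The corresponding shares were 6.16% for RGS2 and 9.77% for GNAI3, and none is given for RGS1, whose difference is a bound. The 6 nearest measured protein-coding genes around GNG2 on chromosome 14 had a median difference of -0.02, and 0 of them were counted as different. Of these, FRMD6, TRIM9, NID2 and PTGDR were dim in both lines, so the rule could not count them. TMX1 was above the dim level, at 8.66 in SUDHL6 and 8.68 in HT. The next gene along, RTRAF, was at 8.16 and 9.02. RefSeq gives 5 start sites for GNG2, with CpG ratios from 0.07 to 0.35, all below the median over all windows, and the arrays do not show which start was used.

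No other gamma subunit gene with its own probe set reached a difference of 1. GNG5 was at 6.27 in SUDHL6 and 6.52 in HT, and GNG7 at 5.55 and 5.54. GNG8 was the gene nearest to the threshold without passing it, at 4.79 and 3.85, a difference of 0.94, with the HT value below the dim level. GNG4 was at 4.26 and 3.52, a difference of 0.74 with the HT value likewise below. Both are gamma subunits known mainly from neural tissue. GNG11, GNG12 and GNG13 lay between 1.71 and 3.20 in both lines. Against the gap of GNG2, the gamma genes GNG5 and GNG7 differed by -0.25 and 0.01.

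The beta subunit genes differed little. GNB1 stood at 9.06 in SUDHL6 and 9.03 in HT. GNB2 was at 5.43 and 5.31. GNB4 lay below the dim level at 3.63 and 3.31. The gap of GNG2 thus had no counterpart in these 3 genes, whose differences ran from 0.03 to 0.31.

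Among the alpha subunits of the Gi class, GNAI3 stood apart from GNAI2. GNAI3 was at 8.06 in SUDHL6 and 9.21 in HT, 2.21-fold higher in HT. The difference, -1.15, was -1.03 after quantile normalization, close to the threshold. GNAI2, the Gi alpha subunit best known for chemokine signalling in lymphocytes, was at 7.32 and 7.34. GNAI1 held the same value, 2.01, on both arrays, below the dim level. Identical values on both arrays, at any level, were found for 681 of the 22011 probe sets. GNAO1, the Go alpha subunit of neurons, was dim at 2.41 and 2.66. GNAZ, known from platelets and neurons, was at 5.68 and 5.67. All 6 nearest measured genes around GNAI3 on chromosome 1 also had the larger value in HT, with a median difference of -0.18. None of them was counted as different, but AMIGO1, GNAT2 and GSTM5 were dim in both lines and could not be. GPR61 differed by -0.04, where the median over all genes was -0.04. The widest of the 6 was CYB561D1, at 4.16 and 4.80 (difference -0.64), and the adjoining transducin gene GNAT2 differed by -0.18. The RefSeq window at the GNAI3 start has a CpG ratio of 0.94.

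The other alpha classes were level between the lines. GNAS, which encodes Gs alpha, had a value of 10.09 in SUDHL6 against 10.03 in HT. GNA13, which carries the confining signal of germinal centre B cells and is a known target of mutation in lymphomas of that origin, was at 8.99 and 9.07. GNA12, of the same class, was at 5.17 and 4.81. All 4 genes of the Gq class were dim in each line. GNAQ was at 2.70 and 2.67, GNA11 at 3.80 and 4.04, GNA14 at 2.27 and 2.13 and GNA15, the Gq class member of blood cells, at 3.34 and 3.44. GNAQ adjoins GNA14 on chromosome 9 and GNA11 adjoins GNA15 on chromosome 19, and each pair was dim together. GNAL, the olfactory form, was at 3.31 and 3.21. In all, 12 of the 13 alpha genes differed by less than 0.5.

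**Figure D3:**
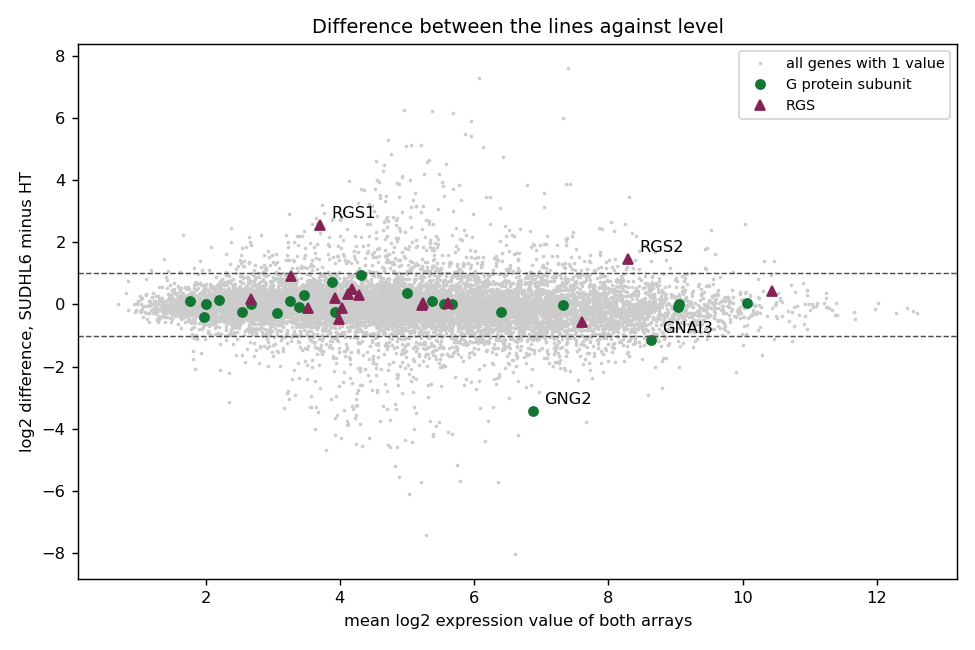
Log2 difference, SUDHL6 minus HT, against the mean log2 expression value of both arrays, for 14232 genes (grey), G protein subunit genes (green circles) and RGS genes (purple triangles), with dashed lines at a difference of 1 either way. GNG2 (-3.43), GNAI3 (-1.15), RGS1 (2.56) and RGS2 (1.46) lie outside the lines and the other 36 genes inside.

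For 5 genes the only measurement was a probe set that also names another gene, so the value cannot be given to either. The probe set of GNG10 and its neighbour DNAJC25, which share a read-through transcript, was at 6.10 in SUDHL6 against 7.37 in HT (difference -1.27). That of GNB5 was at 5.84 and 5.12, that of GNB3 and CDCA3 at 4.14 and 5.03, that of GNG3 and BSCL2 at 3.48 and 2.92, and that of RGS7 and THAP12 at 2.22 and 2.63. Of these, the GNG10 probe set alone differed by 1 or more. A shared probe set also existed for GNG5 with RPF1, at 8.08 and 8.84, and for GNAL with MPPE1, at 6.10 and 6.37. The GNAL gene's own probe set was dim, and the shared one was not.

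The genes around the G proteins, from receptors to effectors, differed in both directions. Over 7 lists, 99 of 117 genes had a value, 10 of them higher in SUDHL6 and 7 higher in HT, and the median difference was 0.01. The 17 counted genes are 17.2% of the 99, where the background over all genes was 8.12%. The lists were chosen with earlier results of these data known, so the larger share is not an independent result. Of 30 receptor genes, 3 had SUDHL6 higher and 1 had HT higher. GPR65, a proton-sensing receptor, was at 6.59 in SUDHL6 and 5.32 in HT, and GPR174, a lysophosphatidylserine receptor, at 5.76 and 4.63. P2RY10, a related receptor, went the other way, at 4.14 and 5.43. The chemokine receptor CXCR4, which signals through Gi, was at 8.81 and 4.05, at least 25.9-fold higher in SUDHL6. S1PR2, a receptor that feeds the G13 branch and was named after its value was seen, was dim at 3.25 and 3.51. Its value does not speak for other receptors of that branch.

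Of the cAMP enzymes and targets, 1 of 24 was counted as different. PRKACB, a catalytic subunit of protein kinase A, was above SUDHL6's dim level at 7.44 and below that of HT at 3.64, so that SUDHL6 was at least 10.0-fold higher. Its paralogue PRKACA was at 5.45 and 5.67. PRKAR1A, a regulatory subunit of the same kinase, was at 9.28 and 9.97. The gap of PRKACB was therefore not seen in these other 2 subunits, which were picked after their values were seen.

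The phospholipase C list had the most counted genes, 7 of 16, with 4 higher in SUDHL6 and 3 in HT. That is 43.8% of the list, against 8.12% of all genes. As the lists were chosen with earlier results of these data known, this share is not an independent result. PRKCB, a protein kinase C, was at least 3.54-fold higher in SUDHL6, and TRIO, an exchange factor that Gq can activate, at least 2.21-fold, at 5.26 and 3.72. RASGRP1, a Ras exchange factor that binds diacylglycerol, was at 5.44 and 6.68, and PRKCE, a further protein kinase C, at 4.06 and 5.31, both higher in HT. The third gene higher in HT, PRKCD, lay at the threshold (7.07 and 8.07) and was not counted after quantile normalization or loess. Kinases of the same family thus differed in opposite directions, and the median of the list was 0.06. PLCB3, a phospholipase C that Gq activates directly, was at 4.68 in SUDHL6 and 4.67 in HT.

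Among 9 effectors of the beta-gamma dimer, ELMO1, which acts with DOCK2 on Rac, was 2.88-fold higher in SUDHL6, at 8.32 and 6.79. PIK3CG, the PI3 kinase that the dimer activates, was at 8.36 and 7.74.

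Genes that end or assist the signal differed in both directions. GRK4, a receptor kinase, was at 4.24 in SUDHL6 against 2.23 in HT, of which the dim level allows a bound of only at least 1.09-fold. GRK5 was at 3.66 and 4.86, at least 2.07-fold higher in HT, but its other own probe set was at 3.71 and 2.70, and with the mean of both it was not counted. RIC8B, a chaperone for Gs and the olfactory alpha subunit, was at 2.83 and 5.67, at least 3.63-fold higher in HT, whereas RIC8A, which assists the other alpha classes, was at 5.44 and 5.48. Of 7 further subunit and RGS genes outside the 45, the transducin gamma gene GNGT2 was the 1 counted as different, at 2.97 and 4.48, at least 1.58-fold higher in HT.

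**Figure D4:**
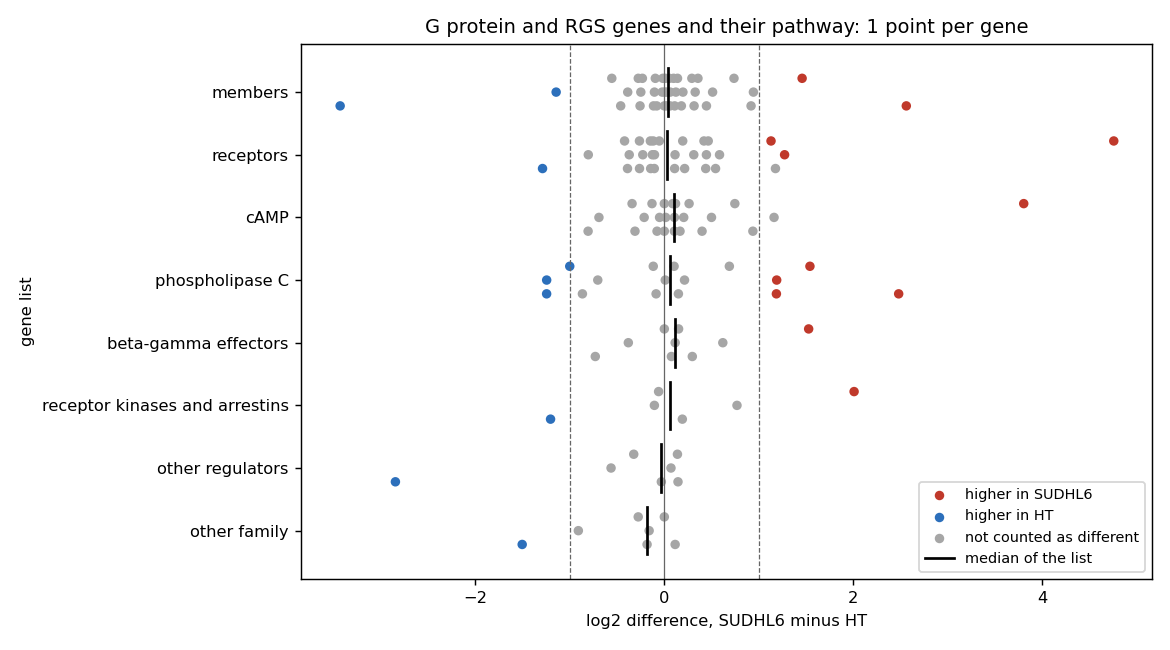
Log2 difference, SUDHL6 minus HT, of each gene (1 point each) in the set of G protein and RGS genes (top, 40 genes) and in the 7 pathway lists, with the median of each list as a black line and dashed lines at a difference of 1 either way. Red points (10 in the pathway lists) mark genes counted as higher in SUDHL6 and blue points (7) those higher in HT, and every median lies between -0.18 and 0.11.

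Markers of the labelled cell type were present, and 17 of 32 markers of other cells also reached the dim level in at least 1 line. All 9 B cell markers with a value reached the dim level in at least 1 line, with a mean of 6.98 in SUDHL6 and 6.51 in HT. MS4A1 (CD20) and CD72 were higher in SUDHL6, and CD72 was dim in HT (5.92 in SUDHL6 and 3.76 in HT). T cell markers averaged 3.21 and 3.33, myeloid markers 3.36 and 3.49, platelet markers 4.05 and 4.02, and neural and retinal markers 3.81 and 3.79. In at least 1 line the dim level was reached by 3 of 8 T cell markers (CD5, CD7 and CD8A), 2 of 7 myeloid (CD68 and TYROBP), 4 of 5 platelet (GP9, ITGA2B, GP1BA and GP6) and 3 of 5 neural and retinal ones (SYN1, STMN2 and PDE6B). CD3D, CD3E, CD3G, CD14, LYZ and PPBP were dim in each line. Of the 25 genes in these 4 lists, 0 were counted as different. Fibroblast and smooth muscle markers averaged 3.69 in SUDHL6 and 4.46 in HT, and 5 of 7 reached the dim level. Of these 7, LUM (2.38 in SUDHL6 and 6.22 in HT) and DCN (2.09 and 5.05) were higher in HT and dim in SUDHL6. MYH11 was higher in SUDHL6 (5.02 and 3.97), with the HT value dim and a difference of 0.91 once values were raised to the dim level. COL3A1 and PDGFRB were dim in each line. COL1A1 and COL1A2 differed by 0.03 and -0.06. Any part of such cells in the differences of the set, GNG2 and GNAI3 among them, was not tested.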

How the data were processed

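The authors deposited log2 expression values for 22011 probe sets on 1 Affymetrix exon array for each line. RMA, which corrects background, normalizes arrays and summarises probes, and the Affymetrix Expression Console stand in the submitters' processing notes, with versions, settings and genome build not given in the sources used here. Among the 225 olfactory receptor genes, SUDHL6 minus HT ran from -1.03 to 1.26, with the outermost genes at each end left out. Genes taken as unexpressed can thus differ by about the threshold of 1.

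Probe sets were named from GEO's platform annotation: 14432 name 1 gene, 2408 name several and 5171 name none here. Gene numbers in RefSeq (GRCh38.p14) gave current symbols for 14404 of the 14432. Each gene took its probe set with the highest mean, which gave 14232 genes. Differences are SUDHL6 minus HT on the log2 scale, and folds are 2 to that power, against the dim level where the lower value was below it. No test, p-value or interval was possible with 1 array for each line. The code for the calls was run on simulated data, with set differences given only to genes well above the dim level. That run checks the code and does not measure how often the calls here are wrong. All 45 members are described, in full where a member reached the dim level. Of each pathway list, up to 4 counted genes with the largest difference are named by rule. PRKACA, PRKAR1A, PLCB3, PIK3CG, S1PR2, RIC8A and PRKCD were added after their values were seen. 1 pathway list is not reported here. The members and lists were chosen with earlier results of these data known. Promoters were matched for 35 of the 40 genes. Alternatives were other normalizations, dim levels, thresholds and probe set rules. Python 3.11.15 with pandas 2.3.3 and statsmodels 0.14.6 was used.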

Additional observations from a re-analysis of the deposited data

How the results depend on the processing

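RGS1, RGS2, GNG2 and GNAI3 kept their direction and stayed counted as different under quantile normalization and loess. The other rules for probe sets cannot move these 4, which have 1 probe set each, and raising values to the dim level cannot move the 3 that lie above it in both lines. For RGS1 that setting, chosen for single genes after seeing the data, gave a difference of 0.87, and the number of members higher in SUDHL6 was 1 instead of 2. In the pathway lists GRK4 and GNGT2 were then no longer counted. That setting also moved the median of the members from 0.04 to -0.12, by construction, since a gene dim in both lines then differs by -0.30. With a difference of at least 0.5 in place of 1, the set held 5 members with more signal in SUDHL6 and 3 with more in HT. The pathway lists then had 16 genes with SUDHL6 higher and 12 with HT higher, where the larger threshold gave 10 and 7. No share of all genes is given at 0.5, so these counts cannot be set against a background. Probe sets naming several genes raised the members higher in HT from 2 to 3 by adding GNG10. Of 42 recomputed counts and medians, 37 stayed within 1.5 times the reported count or 0.1 of the reported median. Some of the 42 could not change, such as the member counts with the mean of all own probe sets. The rise from 2 to 3 members counts as within that limit, so the tally does not measure how firm the results are. Quantile normalization and loess shifted the median difference of all genes by 0.04, and the counts over all genes went from 498 with SUDHL6 higher and 657 with HT higher to 576 and 568, and to 584 and 562. No paired analysis was possible because each line has 1 array. Levels near the dim level limit what can be said of RGS1, GRK4, GNG4 and GNG8.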
